A study of Homo sapiens with 16 samples.

Results

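The respiratory chain of the inner mitochondrial membrane was examined through 56 nuclear genes that encode subunits of its complexes I to IV. Of these genes, 35 belong to complex I, 4 to complex II, 7 to complex III and 10 to complex IV, and they were chosen by gene symbol from the 63677 Ensembl genes of the deposited tables. All 56 symbols were found.

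Both cell lines, MiaPaCa2 and PANC1, are established human lines that come from pancreatic cancers. Each line was grown as an untreated control or was treated for 24 h with 40 nM gemcitabine, 50 µM genistein or both drugs, with 2 biological replicates (I and II) per group and 16 libraries in all. Gemcitabine is a deoxycytidine analogue that blocks DNA synthesis, and genistein is a soy isoflavone that binds estrogen receptors. The study asked how genistein alters the response of pancreatic cancer cells to gemcitabine, and each line is a single established line with no untransformed counterpart here.

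Complex I takes electrons from NADH and complex II takes them from succinate, and both pass them to ubiquinone. Complex III hands them on through cytochrome c to complex IV, which reduces oxygen to water, and complexes I, III and IV pump protons that drive ATP synthase. Nearly all subunits are made from nuclear genes, while the mitochondrial genome encodes the hydrophobic cores of complexes I, III and IV and none of complex II. The transcription factors NRF1 and GABP (ETS family) are known to bind promoters of many of the nuclear genes.

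The promoters of 4 genes are shown because NDUFA5, NDUFS4 and SDHD were the 3 members that were lower at an adjusted p of at most 0.05 under each treatment of MiaPaCa2, and COX8A had the largest rise with both drugs. Each run is the 110 bases before the RefSeq gene start in GRCh38.p14, written 5′ to 3′ on the strand of the gene. NDUFA5 lies on the minus strand at chr7:123601652-123601761, NDUFS4 on the plus strand at chr5:53560529-53560638, SDHD on the plus strand at chr11:112086763-112086872 and COX8A on the plus strand at chr11:63974510-63974619. Capitals mark exact matches, on either strand, to the core NRF1 letters GCATGCG, the ETS letters CCGGAAG, the YY1 letters AAGATGGC or the SP1 letters GGGCGG.
NDUFA5: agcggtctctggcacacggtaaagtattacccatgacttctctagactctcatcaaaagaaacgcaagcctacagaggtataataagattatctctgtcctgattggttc
NDUFS4: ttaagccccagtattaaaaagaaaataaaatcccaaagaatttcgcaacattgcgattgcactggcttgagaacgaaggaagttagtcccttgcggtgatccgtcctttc
SDHD: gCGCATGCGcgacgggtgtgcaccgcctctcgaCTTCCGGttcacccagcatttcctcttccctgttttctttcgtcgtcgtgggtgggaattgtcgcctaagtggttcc
COX8A: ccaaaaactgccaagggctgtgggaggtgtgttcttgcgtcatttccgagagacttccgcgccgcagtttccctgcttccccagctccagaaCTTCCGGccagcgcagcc
SDHD held the NRF1 letters on both strands at the upstream end of the window and the ETS letters 77 bases before its start, and COX8A held the ETS letters 18 bases before its start. The windows of NDUFA5 and NDUFS4 held none of these letters. The RefSeq starts in GRCh38 were not matched to the GRCh37 starts of the genes counted. For NDUFA5 the window may lie away from that start.

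Promoters of 47 members were matched, and the 250 bases before each start were searched. The ETS letters stood in 12 of the 47 (25.5%), against 15.43% of 11479 promoters of genes tested here and 8.52% of all 35116 promoters. The core NRF1 letters stood in 8 of the 47 (17%, against 5.65% of the tested genes and 3.39% of all promoters), those of COX5B, COX6A1, NDUFA6, NDUFB4, NDUFS6, NDUFS7, SDHB and SDHD. The letters TGCGCA, also part of the longer NRF1 site and able to overlap the core match, stood in 15 (31.9%, against 11.25% and 6.89%). The SP1 letters stood in 29 (61.7%, against 67.69% and 42.64%) and the YY1 letters in none, against 1.86% and 1.36%. No promoter sequence was matched for COX6C, CYC1, NDUFA4, NDUFB5, NDUFB9, NDUFC2, NDUFS5, SDHC and UQCRB.

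Levels are given as FPKM, the measure of fragments that the authors scaled to transcript length and library size. Ranks between genes depend on that length scaling. In the MiaPaCa2 controls UQCRQ had fewer counts than UQCRC1 (3228 and 2646 against 4240 and 3396) but a higher mean FPKM (1321 against 379). The part of the scaling in the ranks was not tested. Every member was above 1 FPKM in the untreated cells of both lines. The median member stood at 193 FPKM in MiaPaCa2 and 213 FPKM in PANC1, against medians of 13.1 and 13.3 FPKM over all genes above 1 FPKM, and all 56 members lay above those medians. Across the 56 members the levels of the untreated lines had a Spearman correlation of 0.814, which is a description across genes that share libraries and transcript lengths.

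Complex IV held the member with the highest FPKM of each line, and values are means of 2 libraries with their SD. COX7C, a small membrane subunit, had 1525 ± 124 FPKM in untreated MiaPaCa2 and 834 ± 18.2 FPKM in untreated PANC1, where COX7A2, another small subunit, was higher at 1075 ± 43.4 FPKM. COX4I1, a regulatory subunit around the catalytic core, had 1259 ± 52.6 and 779 ± 98.0 FPKM in MiaPaCa2 and PANC1. COX5B, which binds zinc, was the lowest of this complex in PANC1 at 182 ± 28.5 FPKM.

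In complex III, UQCRQ, a small subunit of the ubiquinone side, had 1321 ± 18.0 and 803 ± 26.1 FPKM in MiaPaCa2 and PANC1, and UQCRFS1, the Rieske iron-sulfur protein, had 94.5 ± 1.89 and 105.3 ± 5.08 FPKM. In complex II, SDHB, the iron-sulfur subunit, had 419 ± 7.55 and 534 ± 29.1 FPKM and SDHD, a membrane anchor, had 63.7 ± 1.92 and 96.6 ± 13.2 FPKM. In complex I, NDUFB5 of the membrane arm had 522 ± 15.98 and 427 ± 57.8 FPKM. The lowest of complex I were NDUFA5 at 24.9 ± 3.51 FPKM in MiaPaCa2 and NDUFV3 at 17.1 ± 0.631 FPKM in PANC1, both accessory subunits of the matrix arm. The plot of FPKM in untreated cells shows that levels within a complex spread more than replicates did.

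**Figure D1:**
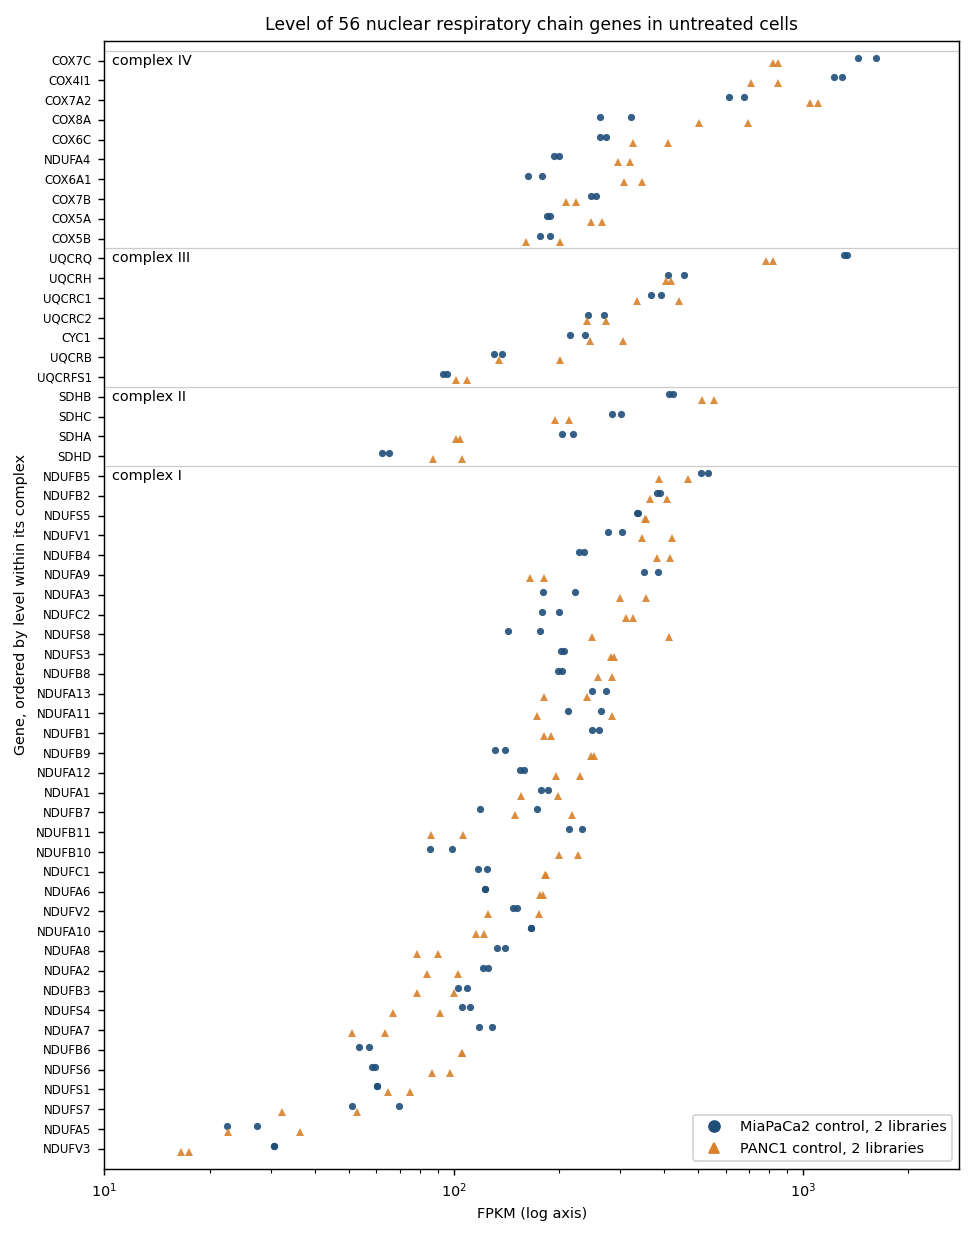
FPKM on a log axis for each of the 56 genes in untreated cells, grouped by complex and ordered by level; circles are the 2 MiaPaCa2 control libraries and triangles the 2 PANC1 control libraries. Levels run from 17.1 FPKM (NDUFV3, PANC1 mean) to 1525 FPKM (COX7C, MiaPaCa2 mean), and all genes are detected in all 4 libraries.

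For a few genes the counts and the FPKM differed in what they held. NDUFV2, a core subunit of complex I, had a median of only 8.5 counts per library at 139 FPKM, and NDUFA7 had 12 counts at 98.3 FPKM. Both overlap another gene on the same strand (28.4% and 32.5% of their exon length). The count-based changes of NDUFV2 and NDUFA7 are therefore not described further, and NDUFV2 was removed by the low-count filter in PANC1. Genes without a symbol overlap NDUFA13, NDUFA11 and NDUFA9 as well. Their counts and FPKM imply lengths of 52.6, 104.1 and 118.6 bases, against a median of 400.2 bases over the members. The part of reads missing from their counts in their changes was not tested. The libraries came from a stranded kit, but the counting setting for strand is not given in the sources used here. Reads of genes that overlap on opposite strands therefore cannot be told apart. Examples are NDUFA2 with IK and TMCO6, and NDUFS7 with a gene without a symbol. Genes without a symbol on the same strand also cover 35.4% of the exon length of COX8A and 11.4% of that of SDHD.

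The libraries had 12943482 to 31991860 counted reads. The 56 members took 0.603% of the counts in each MiaPaCa2 control library and 0.616% to 0.752% in the 6 treated ones, and 0.574% to 0.647% in PANC1. In every group the replicates were further apart than read sampling alone gives, with a chi-square per degree of freedom over the members of 4.18 to 40.3. Epithelial and mesenchymal markers KRT8, KRT18, KRT19 and VIM were high in both lines and ZEB1 lay between 1.82 and 5.15 FPKM. EPCAM was listed at 0 in every MiaPaCa2 library and CDH1 reached 0.021 FPKM there, against at least 7.71 and 2.7 FPKM in PANC1. Of the fibroblast and stellate markers COL1A1 had 33.7 to 99.7 FPKM in PANC1 and up to 1.83 FPKM in MiaPaCa2. PDGFRB had 0.958 to 4.77 FPKM in PANC1 and up to 0.244 FPKM in MiaPaCa2. ACTA2 went the other way, with 5.07 to 12.7 FPKM in MiaPaCa2 and 2.19 to 4.52 FPKM in PANC1. Of the markers of other cell types CD14 and CDH5 reached 4.98 and 1.72 FPKM in MiaPaCa2. PRSS1, CPA1, INS, GCG, SST and PECAM1 were listed at 0 in every library. The part of these markers in the results was not tested. The libraries differed in how log2 counts followed the GC content of exons, and this touches the members. The slope per 10 percentage points of GC was -0.243 and -0.147 for MiaPaCa2 control I and II, and 0.151 and 0.0584 for gemcitabine I and II of the same line. In RNA from a whole culture, fewer cells that express a gene and less RNA per cell cannot be told apart. The libraries with both drugs had slopes of 0.0486 and 0.298, and in PANC1 the controls had 0.3 and -0.0741.

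The untreated lines were compared first, to describe the starting state of the respiratory chain before treatment. Of the 56 members, 35 differed at an adjusted p of at most 0.05 (limma-voom, Benjamini-Hochberg over all 17863 genes tested), 20 higher in PANC1 and 15 lower. Of all genes tested 63.3% passed, 34.1% higher and 29.2% lower. With the fold threshold of the study added to that of the p-value (an absolute log2 difference of at least 0.4 and a mean above 1 FPKM), 30 were called, against 52.2% of all genes. The median difference of the members was 0.06 on the log2 scale beside 0.06 for all genes. The median absolute difference was 0.48 beside 0.72. The median SE was also smaller for the members (0.11 beside 0.20), and genes of like level were not compared. All 4 genes of complex II passed, with SDHD and SDHB higher and SDHA and SDHC lower in PANC1, whereas in complex III only UQCRQ passed.

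The 3 members with the largest higher levels in PANC1 were NDUFB10, COX8A and NDUFS8. Values per library are given, for replicates I and II in that order, as CPM, read counts scaled to library size and normalized by the TMM method within each line. NDUFB10, a membrane-arm subunit of complex I, had 59.4 and 68.0 CPM in the MiaPaCa2 controls and 138.2 and 117.4 CPM in the PANC1 controls (log2 difference 0.99, SE 0.15, adjusted p = 7.53e-05, limma-voom). COX8A, a small membrane subunit of complex IV, had 91.8 and 112.6 CPM against 240.4 and 170.0 CPM (0.97, SE 0.26, adjusted p = 0.00459, limma-voom). NDUFS8, an iron-sulfur subunit near the ubiquinone site, had 61.7 and 73.7 CPM against 166.8 and 107.7 CPM (0.97, SE 0.31, adjusted p = 0.0152, limma-voom). For all 3 genes both PANC1 libraries lay above both MiaPaCa2 libraries, although the PANC1 replicates of COX8A and NDUFS8 stood well apart. COX8A no longer passed without MiaPaCa2 control I, and NDUFS8 without MiaPaCa2 control I or PANC1 control I.

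The 3 members with the largest lower levels in PANC1 were NDUFB11, NDUFA9 and SDHA. NDUFB11, an X-linked membrane-arm subunit, had 224.9 and 246.0 CPM in the MiaPaCa2 controls and 109.9 and 86.7 CPM in the PANC1 controls (-1.29, SE 0.19, adjusted p = 6.21e-05, limma-voom). NDUFA9, which sits where the matrix and membrane arms meet, had 50.5 and 42.1 CPM against 24.5 and 17.1 CPM (-1.22, SE 0.17, adjusted p = 2.88e-05, limma-voom). SDHA, the flavoprotein that oxidizes succinate, had 297.1 and 288.6 CPM against 169.5 and 147.8 CPM (-0.90, SE 0.11, adjusted p = 6.69e-06, limma-voom). The ranges of the lines did not overlap for any of these genes.

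Among the other subunits fixed for description, COX4I1 was lower in PANC1 (-0.79, SE 0.11) and COX5A (0.43, SE 0.11) and SDHB (0.35, SE 0.09) were higher. NDUFS1, the largest iron-sulfur subunit of complex I, NDUFV1, which binds NADH, UQCRFS1 and CYC1 (cytochrome c1) did not pass, with log2 differences of 0.19, 0.38, 0.08 and 0.24 and SEs of 0.10, 0.18, 0.10 and 0.16. CYC1 turned to -0.32 (adjusted p = 0.00444, limma-trend) when the GC trend of each library was removed and limma-trend replaced limma-voom. Its exons have 64.1% GC, and the cause of the change of sign was not tested.

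**Figure D2:**
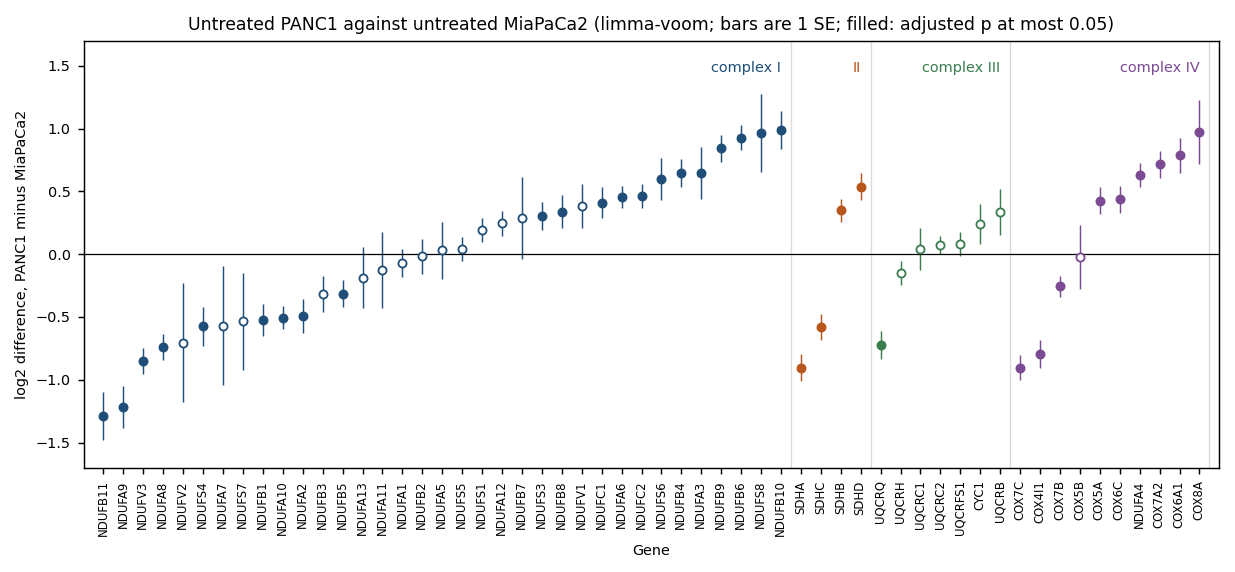
Log2 difference between untreated PANC1 and untreated MiaPaCa2 (y axis) for each of the 56 genes (x axis), ordered within complexes; points are limma-voom estimates, bars are 1 SE, and filled points passed an adjusted p of 0.05. Differences run from -1.29 (NDUFB11) to 0.99 (NDUFB10), and every complex except III has several filled points on both sides of 0.

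The response to gemcitabine was then compared with the control in each line. In MiaPaCa2, 14 of 56 members passed an adjusted p of 0.05, 10 higher and 4 lower, against 39% of the 16064 genes tested (19.4% higher, 19.6% lower). With the fold threshold 8 were called, against 29.6% of all genes, and 46 members moved by less than 0.4. The median change of the members was 0.05, beside -0.01 for all genes, and 35 members had a positive value. The median absolute change was 0.15, beside 0.35 for all genes. The median SE was also smaller for the members (0.11 beside 0.15), and genes of like level were not compared.

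The 10 members that rose belong to complexes I and IV. NDUFS7, an iron-sulfur subunit that passes electrons to ubiquinone, had 43.1 and 57.4 CPM in the controls and 104.9 and 80.9 CPM with gemcitabine (log2 change 0.90, SE 0.23, adjusted p = 0.00941, limma-voom). COX8A went from 91.8 and 112.6 CPM to 163.5 and 153.6 CPM (0.65, SE 0.16, adjusted p = 0.00674, limma-voom), and COX5B from 97.5 and 105.2 CPM to 149.5 and 144.0 CPM (0.54, SE 0.17, adjusted p = 0.0223, limma-voom). All treated libraries lay above all controls for these genes. The remaining risers were NDUFA11, NDUFA2, NDUFB11, NDUFV1, NDUFC1, NDUFA4 and NDUFA8, with changes from 0.24 (NDUFA8) to 0.52 (NDUFA11). Of these, NDUFV1 rose by 0.40 (SE 0.11).

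The fallers were 3 complex I subunits and SDHD. In GRCh37, NDUFA5 spans chr7:123177051-123197958, NDUFS4 chr5:52856463-52979168 and SDHD chr11:111957548-111990739. NDUFA5 had 23.2 and 20.3 CPM in the controls and 13.1 and 15.6 CPM with gemcitabine (-0.61, SE 0.16, adjusted p = 0.00887, limma-voom), a fall of 34.4%. NDUFS4, an accessory subunit of the matrix arm, went from 67.0 and 64.1 CPM to 46.3 and 52.1 CPM (-0.42, SE 0.11, adjusted p = 0.0118, limma-voom). SDHD went from 53.5 and 52.7 CPM to 41.4 and 45.0 CPM (-0.30, SE 0.10, adjusted p = 0.0273, limma-voom), and NDUFS1 fell by 0.26 (SE 0.09, adjusted p = 0.0397, limma-voom). The treated and control libraries did not overlap for NDUFA5, NDUFS4, SDHD or NDUFS1, which describes the same libraries that the test used. No gene of complex III passed, and SDHA, SDHB, UQCRFS1, CYC1, COX4I1 and COX5A had changes of 0.18, -0.09, -0.12, -0.18, 0.13 and 0.15 that did not pass.

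Without MiaPaCa2 control I 1 member was called, and without gemcitabine I 2 were. NDUFS7, COX8A, NDUFA5, NDUFS4 and NDUFV1 no longer passed without either of these libraries, and COX5B, SDHD and NDUFS1 did not pass without any 1 of the 4 control and gemcitabine libraries. The changes also moved with GC content: over the 20 members with at least 50% GC the median change was 0.31, and over the other 36 it was -0.01. After the GC trend of each library was removed, in a limma-trend fit in place of limma-voom, 22 members passed (18 higher, 4 lower). Of all genes 45.6% passed, and 11 of the 14 members did so in the same direction. NDUFA5 (-0.12, adjusted p = 0.411), NDUFS1 (-0.04, adjusted p = 0.61) and NDUFA11 (0.14, adjusted p = 0.298) were lost, whereas NDUFS7 kept 0.55 (adjusted p = 0.00395), NDUFA2 0.38 (adjusted p = 0.000395), NDUFS4 -0.22 (adjusted p = 0.0331) and SDHD -0.21 (adjusted p = 0.0283). With exon length removed as well 15 passed, 9 of the 14 in the same direction, and NDUFS1, NDUFV1, NDUFA5, NDUFA11 and NDUFS4 were lost. Exon GC and length were taken over all annotated exons of a gene together, not over the expressed transcript. For NDUFA5 that length was 13738 bases, whereas its counts and FPKM imply 792.5 bases. SDHD passed in 6 of 12 other settings and NDUFS4 in 9. The part of GC content in these changes was not tested.

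**Figure D3:**
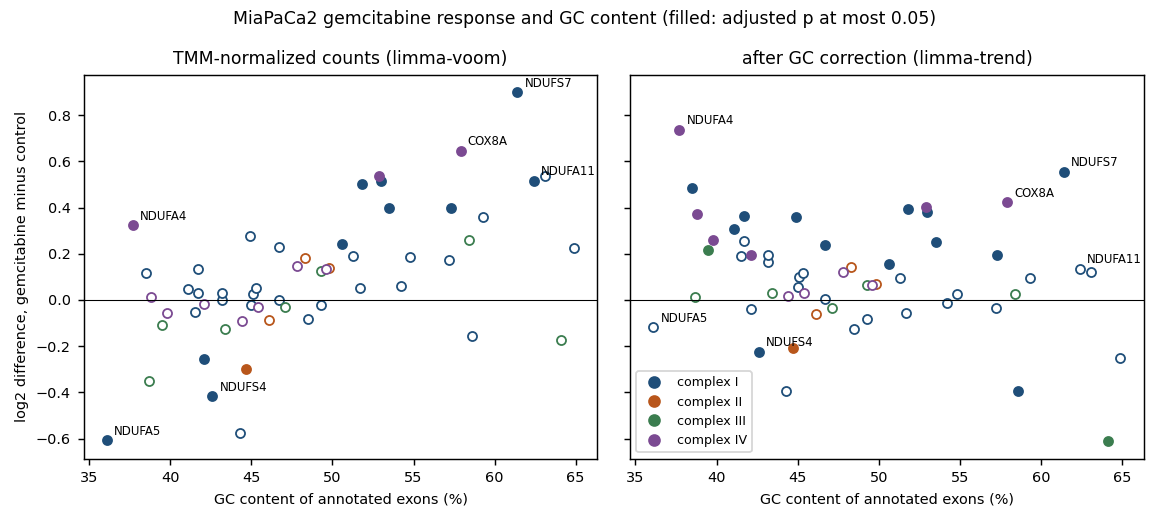
Log2 change with gemcitabine in MiaPaCa2 (y axis) against the GC content of annotated exons (x axis, %) for 56 genes. Left is limma-voom, and right is limma-trend after the GC trend of each library was removed. Filled points passed an adjusted p of 0.05. NDUFS7, with 61.4% GC, stays high on both sides (0.90 and 0.55), while NDUFA5, with 36.1% GC, moves from -0.61 to -0.12 and NDUFA4, with 37.7% GC, from 0.32 to 0.74.

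In PANC1, COX7A2 was the 1 member of the 55 tested that passed with gemcitabine, and it was lower, against 8.5% of the 16909 genes tested (3.61% lower), and none was called with the fold threshold, against 7.52%. COX7A2 had 223.6 and 207.5 CPM in the controls and 168.8 and 169.6 CPM with gemcitabine (-0.34, SE 0.09, adjusted p = 0.0483, limma-voom). The median change of the members was -0.05, beside 0.03 for all genes, and 17 members had a positive value. NDUFS1, NDUFV1, SDHA, SDHB, UQCRFS1, COX4I1 and COX5A lay between -0.15 (COX5A) and 0.01 (SDHA), and CYC1 had -0.41, none of which passed. COX7A2 passed in 1 of the 8 fits that left out a library, that without control II, and with the fold threshold 2 members were then called. An unadjusted p under 0.05 was reached by 6 members. edgeR and DESeq2 each passed 1, against 7.97% and 10.8% of all genes. In the limma-trend fit with the GC trend removed 6 passed (1 higher, 5 lower), against 29.8%. The median SE over all genes was 0.20 in PANC1 and 0.15 in MiaPaCa2, and over the members it was 0.12 and 0.11.

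The gemcitabine responses of the lines were also compared directly, as the difference of the changes. COX5B, NDUFA2 and NDUFA4 were the 3 members that passed, all with a lower change in PANC1, against 15.3% of the 17863 genes tested (9.06% lower). COX5B rose in MiaPaCa2 as given above, while in PANC1 it had 114.3 and 89.1 CPM in the controls and 73.1 and 61.3 CPM with gemcitabine (difference of changes -1.22, SE 0.36, adjusted p = 0.0402, limma-voom). NDUFA2, an accessory subunit of the matrix arm, had 76.3 and 78.9 CPM against 106.3 and 115.3 CPM in MiaPaCa2 and 62.3 and 50.3 CPM against 51.3 and 49.4 CPM in PANC1 (-0.75, SE 0.20, adjusted p = 0.0238, limma-voom). NDUFA4, now assigned to complex IV, had 98.0 and 93.3 CPM against 108.7 and 132.3 CPM in MiaPaCa2 and 144.4 and 153.7 CPM against 138.1 and 142.2 CPM in PANC1 (-0.51, SE 0.13, adjusted p = 0.0226, limma-voom).

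Across the 56 members 47 of these differences were below 0, with a median of -0.29 beside -0.08 for all genes. The 3 calls depended on single libraries. Without PANC1 control II, 19 members passed, without PANC1 both-drug II 5 did, without PANC1 control I 1 did, and without MiaPaCa2 control I or II, MiaPaCa2 gemcitabine II or either PANC1 gemcitabine library none did. The PANC1 controls had GC slopes of 0.3 and -0.0741. With the GC trend removed 12 members passed, all lower in PANC1, against 26.5% of all genes. The part of the GC trend in the differences was not tested.

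**Figure D4:**
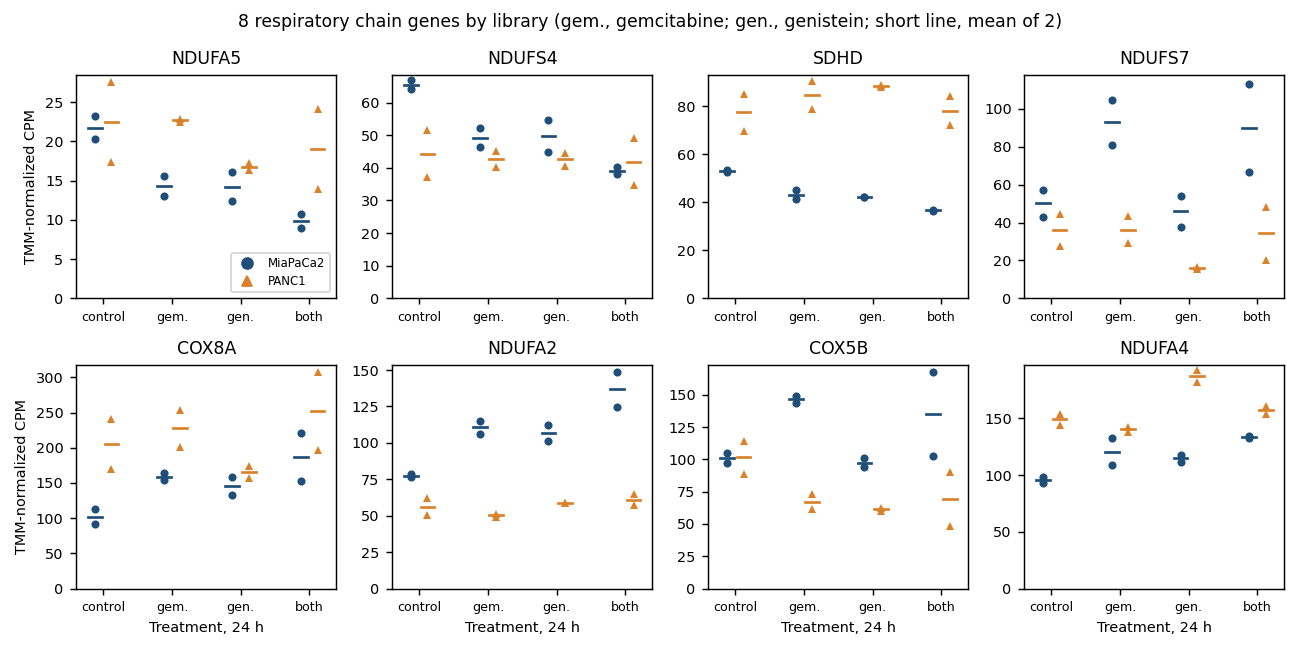
TMM-normalized CPM (y axis, from 0) in each library for 8 genes by treatment (x axis), with MiaPaCa2 as circles, PANC1 as triangles and a short line at each mean of 2 replicates. In MiaPaCa2, NDUFA5, NDUFS4 and SDHD are lower under each treatment than in the controls and NDUFA2 is higher, and NDUFS7, COX8A, COX5B and NDUFA4 differ between replicates or treatments; PANC1 replicates of several genes are far apart.

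Few members passed the test with genistein alone. In MiaPaCa2, 4 of 56 passed, 1 higher and 3 lower, against 11.4% of the genes tested (5.99% higher, 5.42% lower), and 2 were called with the fold threshold (NDUFA2 and NDUFA5), against 8.31%. NDUFA2 lay 0.54 and 0.38 above the control mean in genistein I and II on the log2 CPM scale, above both controls (0.45, SE 0.11, adjusted p = 0.0202, limma-voom). NDUFA5 had 12.4 and 16.1 CPM (-0.59, SE 0.16, adjusted p = 0.0313, limma-voom), NDUFS4 44.8 and 54.8 CPM (-0.39, SE 0.11, adjusted p = 0.0452, limma-voom) and SDHD 42.2 and 42.4 CPM (-0.33, SE 0.10, adjusted p = 0.0481, limma-voom), all below both controls. These are the members that also passed with gemcitabine in the same direction, and both comparisons share the control libraries. With the GC trend removed NDUFA5 was lost (-0.25, adjusted p = 0.113), while NDUFA2 (0.33), NDUFS4 (-0.34) and SDHD (-0.34) passed.

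The genistein calls of MiaPaCa2 were few and rested on few libraries. None of the 2 was kept without control I, control II or genistein I, 1 was called without either gemcitabine library, and 5 members were called without genistein II or either both-drug library. NDUFS1, NDUFV1, SDHA, SDHB, UQCRFS1, CYC1, COX4I1 and COX5A had changes between -0.09 (NDUFS1) and 0.19 (SDHA), none of which passed.

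In PANC1 no member passed with genistein, against 0.0591% of the genes tested, and 10 members had an unadjusted p under 0.05. edgeR passed none, against 0.071% of all genes, and DESeq2 passed 2, against 4.7%. In the limma-trend fit with the GC trend removed 14 passed, 3 higher and 11 lower, against 15.7% of all genes. With GC and length removed 10 did, against 12.2%. These fits changed both the test and the GC trend, and the part of each was not tested. The lowest adjusted p was that of NDUFA4, which had 144.4 and 153.7 CPM in the controls and 181.7 and 192.2 CPM with genistein (0.32, SE 0.09, adjusted p = 0.139, limma-voom; chosen after its values were seen). NDUFV1 had -0.40 and CYC1 -0.23, which did not pass, and CYC1 turned to 0.36 (adjusted p = 0.0293) with the GC trend removed. Over the 20 members with at least 50% GC the median change in PANC1 was -0.25, and over the other 35 it was 0.08. In the test of the difference between the lines in genistein response no member passed (lowest adjusted p = 0.302, against 0.0336% of genes tested, with 5 unadjusted p under 0.05 and none by edgeR or DESeq2).

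Co-treatment was compared with the control and with gemcitabine alone, since the study asked what genistein adds to gemcitabine. In MiaPaCa2 against the control, 23 of 56 members passed, 17 higher and 6 lower, against 51.6% of the genes tested (25.4% higher, 26.2% lower), and 15 were called with the fold threshold, against 40.5%. The median change was 0.10, beside -0.01 for all genes, and 40 members had a positive value. By complex, 13 of 35 passed in complex I, 2 of 4 in complex II, 4 of 7 in complex III and 4 of 10 in complex IV.

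The largest rises were in COX8A, NDUFS7 and NDUFA2. COX8A had 152.6 and 221.2 CPM with both drugs (0.86, SE 0.16, adjusted p = 0.000596, limma-voom), NDUFS7 66.6 and 113.3 CPM (0.82, SE 0.24, adjusted p = 0.0113, limma-voom) and NDUFA2 124.9 and 148.7 CPM (0.82, SE 0.11, adjusted p = 4.58e-05, limma-voom). NDUFA2 was the member with the lowest adjusted p in each treatment of MiaPaCa2 against the control, and its libraries with both drugs lay above those of every other MiaPaCa2 group. NDUFV1 (0.48, SE 0.11), SDHA (0.31, SE 0.09) and COX4I1 (0.23, SE 0.08) also rose.

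The largest falls were in NDUFA5, NDUFS4 and UQCRB. NDUFA5 had 10.8 and 9.0 CPM with both drugs (-1.15, SE 0.17, adjusted p = 0.000126, limma-voom), which is 54.9% below the control. NDUFS4 had 40.2 and 38.1 CPM (-0.75, SE 0.12, adjusted p = 0.0002, limma-voom). UQCRB, a small subunit of complex III, had 50.6 and 46.9 CPM in the controls and 31.2 and 34.0 CPM with both drugs (-0.58, SE 0.15, adjusted p = 0.00555, limma-voom). SDHD, with 36.7 and 36.5 CPM, fell by 0.54 (SE 0.10, adjusted p = 0.000651, limma-voom) and NDUFS1 fell by 0.43 (SE 0.09), while SDHB, UQCRFS1, CYC1 and COX5A had -0.05, -0.09, -0.16 and 0.16 and did not pass. All libraries with both drugs lay below all controls for each of these falling genes.

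Without both-drug library II, which had the steepest GC slope of the line at 0.298, 7 members were called. NDUFS7 no longer passed without that library or control I, UQCRB without control I, SDHA without control II, and COX4I1 without either control or both-drug II. COX8A, NDUFA2, NDUFA5, NDUFS4, NDUFS1 and NDUFV1 passed in all 8 fits. With the GC trend removed 32 members passed (23 higher, 9 lower) against 57.8% of all genes, and 18 of the 23 did so in the same direction. NDUFA11, UQCRB, UQCRC1 and COX4I1 no longer passed, and UQCRC2 turned from -0.21 to 0.24 (adjusted p = 0.00722; chosen after its values were seen). COX8A (0.58), NDUFA2 (0.60), NDUFA5 (-0.41), NDUFS4 (-0.52) and SDHD (-0.47) passed in both fits. With exon length removed as well 22 members passed, 11 of the 23 in the same direction, and the 12 lost included NDUFS1, NDUFS7, NDUFV1 and NDUFA5 (-0.31, adjusted p = 0.0699). The part of GC content was not tested.

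Added to gemcitabine, genistein moved no member past the threshold in either line by limma-voom on the counts. In MiaPaCa2 no member passed, against 7.34% of the genes tested (5.88% with the fold threshold). The lowest adjusted p was that of COX7A2 (0.33, SE 0.11, adjusted p = 0.0791, limma-voom), and 7 members had an unadjusted p under 0.05. Without both-drug I 4 members were called, and without both-drug II 1 was. In PANC1 no member passed, against 0.0177% of the genes tested, and 1 member had an unadjusted p under 0.05. edgeR and DESeq2 passed no member in either line. After removal of the GC trend 5 members passed in MiaPaCa2 (3 higher, 2 lower), against 19.9% of all genes, and 1 in PANC1, against 15%, and with length removed as well 2 and 1 did, against 15.3% and 10.2%. The gemcitabine by genistein interaction passed for no member, with lowest adjusted p of 0.726 in MiaPaCa2 (NDUFA7, which has a median of 12 counts) and 0.734 in PANC1 (NDUFS1) by limma-voom, none by edgeR or DESeq2, and no unadjusted p under 0.05, against 0.0249% and 0% of the genes tested. The median SE of the interaction over members was 0.15 in MiaPaCa2 and 0.18 in PANC1.

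In PANC1 with both drugs against the control, 2 members passed, both lower, against 19.8% of the genes tested (8.24% lower). NDUFB10 (138.2 and 117.4 CPM in the controls, 77.1 and 97.8 CPM with both drugs, -0.54, SE 0.14, adjusted p = 0.0320, limma-voom) and NDUFS5 (133.7 and 132.3 CPM against 103.3 and 106.1 CPM, -0.34, SE 0.09, adjusted p = 0.0284, limma-voom) were these members, and NDUFB10 was the 1 called with the fold threshold, against 17.1%. The median change of the members was -0.04, beside 0.01 for all genes. That call was lost without any library of the line other than control II and both-drug II, without each of which 2 members were called.

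**Figure D5:**
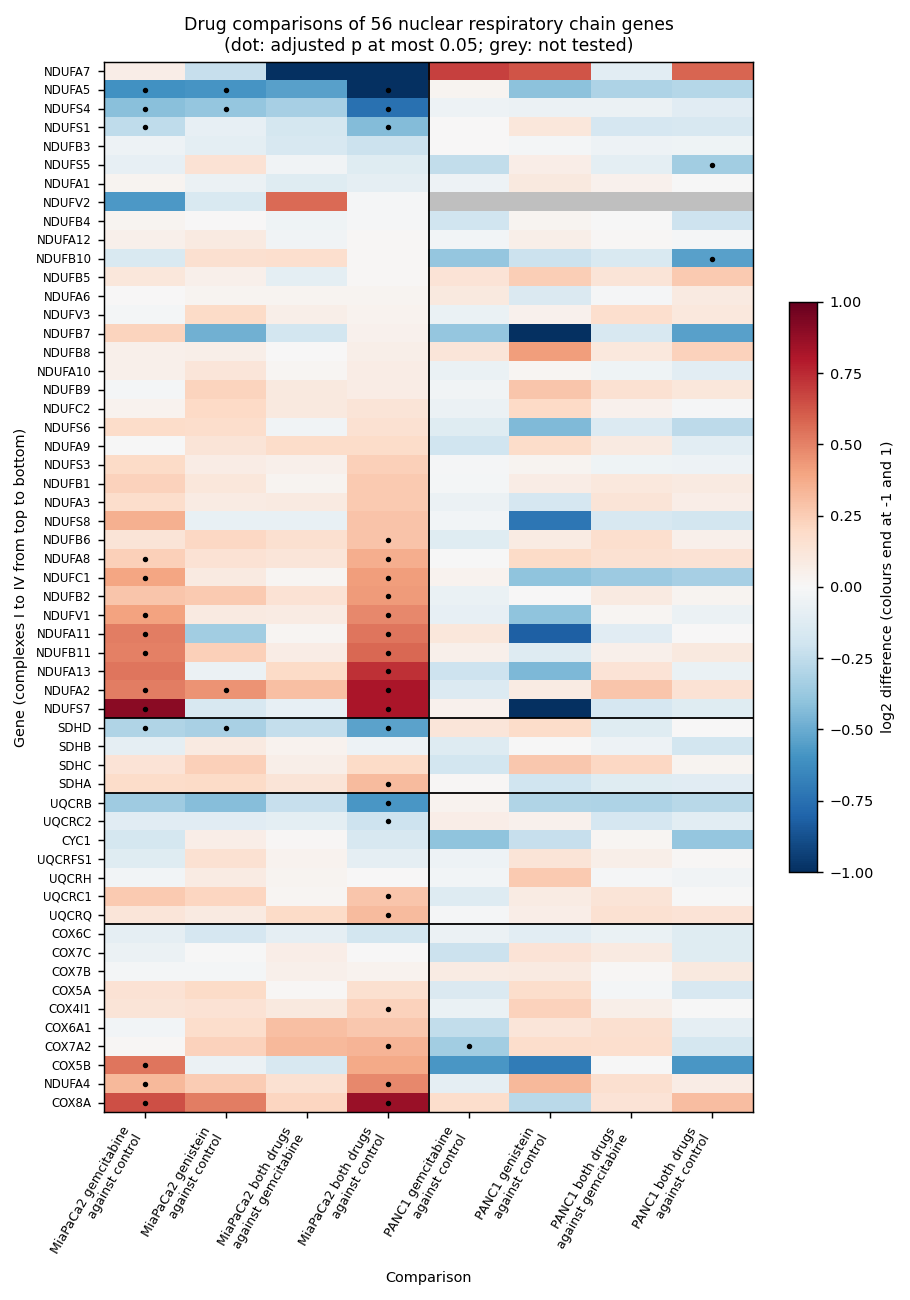
Colour shows the log2 difference of each of the 56 genes (rows, by complex) in 8 drug comparisons (columns), cut at -1 and 1, with a dot where the adjusted p was at most 0.05 and grey where a gene was not tested. Dots are concentrated in the MiaPaCa2 columns against the control (14 for gemcitabine, 4 for genistein and 23 for both drugs), and the PANC1 columns hold 3; the strong colours of NDUFA7 and NDUFV2 rest on a median of 12 and 8.5 counts.

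Other genes of the respiratory system were described by lists. Among 12 regulators of nuclear and mitochondrial respiratory genes, 11 were tested, and in MiaPaCa2 10 of the 11 were lower with gemcitabine and 10 with both drugs, against 19.6% and 26.2% of all genes lower. None was higher. With gemcitabine PPARGC1B, a coactivator of NRF1, changed by -1.07 (SE 0.15, adjusted p = 0.00018, limma-voom) and GABPB1, a subunit of GABP, by -0.80 (SE 0.16, adjusted p = 0.00234, limma-voom). With the GC trend removed 10 of 11 passed in each comparison, whereas on log2(FPKM + 1) 2 and 7 passed. With genistein 1 of 11 passed in MiaPaCa2, TFB2M, a mitochondrial transcription factor, at -0.43 (SE 0.11). In PANC1 1 passed with gemcitabine, against 8.5% of all genes, and 2 with both drugs, against 19.8%. By the test of the difference, which 15.3% of all genes passed, 4 of the 11 (TFAM, TFB2M, PPARGC1B and PPRC1) had a higher gemcitabine change in PANC1 than in MiaPaCa2. The median change of the 56 subunits in MiaPaCa2 was 0.05 with gemcitabine and 0.10 with both drugs.

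The 13 protein-coding genes of the mitochondrial genome were lower in MiaPaCa2 with gemcitabine for 9, with genistein for 9 and with both drugs for 5, against 19.6%, 5.42% and 26.2% of all genes, and none was higher. MT-ND6, a complex I subunit, fell by 1.44 (SE 0.18) with gemcitabine and MT-CYB of complex III by 0.80 (SE 0.09). With the GC trend removed 4, 12 and 4 of the 13 passed, and on log2(FPKM + 1) 2, 0 and 1 did. In PANC1 3 were lower and 1 higher with gemcitabine, and 3 lower and 1 higher with both drugs, where 8.5% and 19.8% of all genes passed. The lowest changes there were -1.29 and -1.42. With genistein none passed in PANC1. By the test of the difference in gemcitabine response between the lines none of the 13 passed. The libraries were selected for poly-A RNA, and how mitochondrial transcripts were captured was not tested.

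Of 43 assembly factors, 13 passed with gemcitabine in MiaPaCa2 (4 higher, 9 lower) and 19 with both drugs (8 higher, 11 lower), and with genistein 5 did (4 higher, 1 lower), where 39%, 51.6% and 11.4% of all genes passed. NDUFAF4, which assembles complex I, had the largest fall, -0.996 (SE 0.14) with gemcitabine and -1.44 (SE 0.15) with both drugs, and FOXRED1, another complex I assembly factor, rose by 0.46 (SE 0.10) and 0.83 (SE 0.10). Of 16 genes of ATP synthase, 2, 1 and 3 passed with gemcitabine, genistein and both drugs, where 39%, 11.4% and 51.6% of all genes did. Of 14 further subunits, isoforms and cytochrome c, 7 were tested, and CYCS (cytochrome c) was the 1 that passed, with -0.48 (SE 0.11) with gemcitabine and -0.66 (SE 0.12) with both drugs. In the untreated lines 26 of 43 assembly factors, 12 of 16 ATP synthase genes, 8 of 13 mitochondrially encoded genes and 7 of 11 regulators passed, where 63.3% of all genes did. COX6B2, an isoform of a complex IV subunit, was higher in PANC1 by 4.13 (SE 0.58) on the log2 scale.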

How the data were processed

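RNA sequencing of MiaPaCa2 and PANC1 cells gave 16 libraries, 2 biological replicates in each of 8 groups taken from the sample labels. The authors sequenced single reads of 50 bp from poly-A libraries, mapped them to GRCh37 with TopHat2 2.0.4, removed reads with multiple alignments with Picard 1.29 and deposited read counts per gene (HTSeq 0.6.1, whole numbers, not normalized) and FPKM per gene (Cufflinks 2.1.1, scaled to length and library size). FPKM per isoform were not used here. Here, counts were scaled with TMM factors (edgeR 4.0.16) after the default filterByExpr filter. The test was voom followed by empirical Bayes moderation in limma 3.58.1 (R 4.3.3), with the 8 libraries of a line in each model and all 16 for comparisons between lines, and p-values were adjusted by Benjamini-Hochberg over all genes tested. A member was called when its adjusted p did not exceed 0.05, its log2 change was 0.4 or more in size and the treated group averaged over 1 FPKM (either line, for untreated cells). Differences between lines in response and interactions were judged by the adjusted p alone. Where a symbol had several table rows (68 rows for 56 symbols), the Ensembl gene of that name was used, and the largest of repeated FPKM rows was taken. Other settings tried were the edgeR quasi-likelihood test, DESeq2 1.42.0, its size factors or library size in place of TMM, no filter, limma-trend on log2(FPKM + 1), a replicate block, removal of each library's trend with exon GC content (loess, span 0.3, degree 1; GENCODE v44 lifted to GRCh37) and length, other libraries in the model, and each library left out. The tests were tested on simulated data. Exon GC content and length were taken over all annotated exons of a gene together, not over the expressed transcript. The fits with GC, or GC and length, removed used limma-trend on log2 CPM in place of voom. They left out genes without annotated GC content. No limma-trend fit on CPM without that removal was run, so the change of test and the removal were not separated. Promoters are RefSeq sequences of GRCh38.p14, matched by gene symbol alone.

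The members and lists were chosen with earlier results of these data known. Named genes are the up to 3 largest rises and falls past an adjusted p of 0.05 in each comparison, 8 subunits fixed for every comparison, the highest and lowest FPKM of each complex, and up to 2 genes in each direction of the other lists. With 2 replicates per group the p-values rest on spread shared across genes. Where libraries of passing genes are said not to overlap, this describes the libraries that the test used and adds no support.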

Additional observations from a re-analysis of the deposited data

Results flagged for a closer look

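The gemcitabine response of 3 members differed between the lines by a test of the difference itself. COX5B had a difference of changes, PANC1 minus MiaPaCa2, of -1.22 (SE 0.36, adjusted p = 0.0402, limma-voom), NDUFA2 of -0.75 (SE 0.20, adjusted p = 0.0238, limma-voom) and NDUFA4 of -0.51 (SE 0.13, adjusted p = 0.0226, limma-voom). In fits that left out 1 of the 16 libraries, COX5B passed in 5, NDUFA2 in 9 and NDUFA4 in 11.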

How the results depend on the processing

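The counts of called members moved with the setting as follows, and unless stated the cause was not tested. Without the fold threshold, by construction, 14 members passed for MiaPaCa2 gemcitabine, 4 for MiaPaCa2 genistein, 23 for MiaPaCa2 both drugs against control, 1 for PANC1 gemcitabine and 2 for PANC1 both drugs against control. With all 16 libraries in 1 model MiaPaCa2 gemcitabine had 3 calls and MiaPaCa2 genistein 0. With only the groups compared in the model MiaPaCa2 genistein had 4, PANC1 genistein 2 and PANC1 both drugs against control 0. Without a low-count filter MiaPaCa2 genistein had 1, and with library size alone PANC1 both drugs against control had 0, while the median of all genes for MiaPaCa2 gemcitabine moved from -0.01 to 0.09. On log2(FPKM + 1) MiaPaCa2 genistein had 0, PANC1 both drugs against control 0 and the gemcitabine response between lines 1. DESeq2 gave 2 for PANC1 genistein and 5 for the gemcitabine response, where 4.7% and 18.4% of all genes passed the adjusted p alone.

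With the GC trend removed there were 4 calls for MiaPaCa2 genistein, 1 for MiaPaCa2 both drugs against gemcitabine, 2 for PANC1 gemcitabine, 5 for PANC1 genistein, 1 for PANC1 both drugs against gemcitabine, 3 for PANC1 both drugs against control, 12 for the gemcitabine response and 2 for the genistein response. With GC and length removed there were 4 for PANC1 genistein, 1 for PANC1 both drugs against gemcitabine, 4 for PANC1 both drugs against control, 15 for the gemcitabine response and 1 for the genistein response. These fits used limma-trend in place of voom. With the GC trend removed 26.5% of all genes passed for the gemcitabine response and 4.22% for the genistein response. With GC and length removed 25% and 3.72% did. UQCRB in MiaPaCa2 with both drugs turned to 0.0093 with GC and length removed. Its annotated exons together cover 12600 bases, whereas its counts and FPKM imply 351.9 bases. CYC1 turned to 0.36 in PANC1 with genistein, with and without the block, and between the untreated lines to -0.32 with GC, -0.27 with GC and the block and -0.29 with GC and length.

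The replicate numbers share no stated batch, and the correlation of deviations between same-numbered libraries ran from -0.257 to 0.128 in MiaPaCa2 and from -0.508 to 0.259 in PANC1, so the numbers were not taken to pair the samples. With the replicate block there was 1 call for MiaPaCa2 genistein, 0 for PANC1 both drugs against control and 0 for the gemcitabine response. With GC removed and the block there were 4 for MiaPaCa2 genistein, 1 for MiaPaCa2 both drugs against gemcitabine, 1 for PANC1 gemcitabine, 4 for PANC1 genistein, 1 for PANC1 both drugs against gemcitabine, 3 for PANC1 both drugs against control, 11 for the gemcitabine response and 1 for the genistein response.

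With 1 library left out the calls ran from 1 to 11 for MiaPaCa2 gemcitabine, 0 to 5 for MiaPaCa2 genistein, 7 to 22 for MiaPaCa2 both drugs against control, 0 to 4 for MiaPaCa2 both drugs against gemcitabine, 0 to 2 for PANC1 gemcitabine, 0 to 2 for PANC1 both drugs against control, 24 to 34 for the untreated lines and 0 to 19 for the gemcitabine response. A group left with 1 library is assumed to vary like the others. Of the 2639 values of named genes counted under the alternatives, 2406 kept direction and side of the threshold, 180 no longer passed and 47 newly passed. The other 6 changed sign where at least 1 of the fits compared passed. Missing values, and values that changed sign while neither fit passed, were left out of this count.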
